A study of Mus musculus with 4 samples.

Results

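The 10 genes described here are the best-known members of the interleukin 1 family in the mouse with their receptors and inhibitors, namely Il1a, Il1b, Il18, Il33, Il1rn, Il18bp, Il1r1, Il1r2, Il1rap and Il1rl1. They were found by gene symbol, and all 10 of 10 were present among the 44788 rows of the count table. Colon tissue RNA of C57BL/6 mice gave 4 libraries, 1 per group: untreated wild type (WT, day 0), untreated Card9-/- (day 0), WT after AOM/DSS (day 100) and Card9-/- after AOM/DSS (day 100). AOM/DSS joins the mutagen azoxymethane (AOM, 10 mg/kg, given into the peritoneum) with 3 cycles of 7 days of the gut irritant dextran sulfate sodium (DSS, 2% in drinking water), and it leads to colitis-associated tumours. Treatment and day of collection coincide, and whether a library holds 1 mouse or a pool is not given in the sources used here. Values are read counts scaled to the library's effective size (CPM) with TMM factors, which correct for library composition. Every interval in brackets is a 95% interval that covers counting error only, since 1 library per group gives no replicate spread.

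Interleukin 1 alpha and beta are alarm cytokines that bind the receptor Il1r1, which pairs with the accessory chain Il1rap and signals through Myd88 and NF-kB. Il1rn encodes a secreted antagonist that occupies Il1r1 without signalling, and Il1r2 encodes a decoy receptor that lacks the signalling domain. The cytokine encoded by Il18 is made by gut epithelium as an inactive precursor, is cut by caspase-1 and is neutralised by the product of Il18bp. The nuclear alarmin encoded by Il33 signals through Il1rl1 (ST2), which is found on mast cells, regulatory T cells and type 2 lymphoid cells.

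The libraries held 23022885 to 27706567 counts. Card9, the gene named in the genotype label, stood at 1.75 and 3.18 CPM in the untreated libraries of WT and labelled knockout and at 5.32 and 7.73 CPM in the AOM/DSS libraries. The counts thus do not show the loss that the label names. A count per gene does not say whether the reads cover the deleted part of Card9, so it neither checks nor refutes the label. Both Card9-/- libraries are therefore called labelled knockout, and directions between genotypes rest on that label. After AOM/DSS the labelled knockout was unlike the rest: across 16790 genes its log2 values correlated with those of the other libraries at 0.868 to 0.892, while the other 3 correlated at 0.955 to 0.964. All 12 colon epithelium markers had counts in every library, with Krt8 between 3602 and 5338 CPM. Others of the 12 were less even. Muc2 stood at 13360 and 7440 CPM in the untreated libraries of WT and labelled knockout and at 8674 and 905 CPM after AOM/DSS. Between the treated libraries, 6 of the 12 were at least 2-fold lower in the labelled knockout and 2, Krt18 and Lgr5, at least 2-fold higher. In bulk tissue, more or fewer cells of a type and more or less RNA per cell cannot be told apart.

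A gene was called higher or lower at a difference of at least 2-fold on the log2(CPM + 1) scale if the higher library held at least 50 counts. In the WT pair, 7 of the 10 members were higher after AOM/DSS and 0 lower, while 4.08% of 15356 genes were called higher and 3.88% lower. In the pair labelled knockout, 6 members were higher and 1 lower, against 14.1% and 15.9% of 15900 genes. Members higher in both pairs were Il1a, Il1b, Il33, Il1r2 and Il1rl1. Scaling by library totals turned the split of all calls in the pair labelled knockout from 47.0% to 64.1% higher and left the members' counts at 6 and 1. The median log2 ratio of the members was 1.70 in the WT pair and 2.34 in the other, against 0.02 and 0.03 over all genes. Both comparisons are of AOM/DSS with untreated colon, so they describe the tumour protocol together with the later day.

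Between genotype labels, 2 members, Il18 and Il1rn, were higher in the labelled knockout without treatment, and 0 were lower, against 4.46% and 3.37% of 15352 genes. Il1a, Il1b and Il1r2 had under 50 counts in both untreated libraries and could not be called there. After AOM/DSS, Il18bp was higher and Il1b lower in the library labelled knockout, against 11.9% and 12.4% of 15779 genes. The share of higher genes among all calls of that pair was 48.9%, and 64.2% with library totals. A share of 1 in 10 members each way is near that background. The calls given below for marker and pathway lists stand against these same shares of all genes in each comparison.

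**Figure D1:**
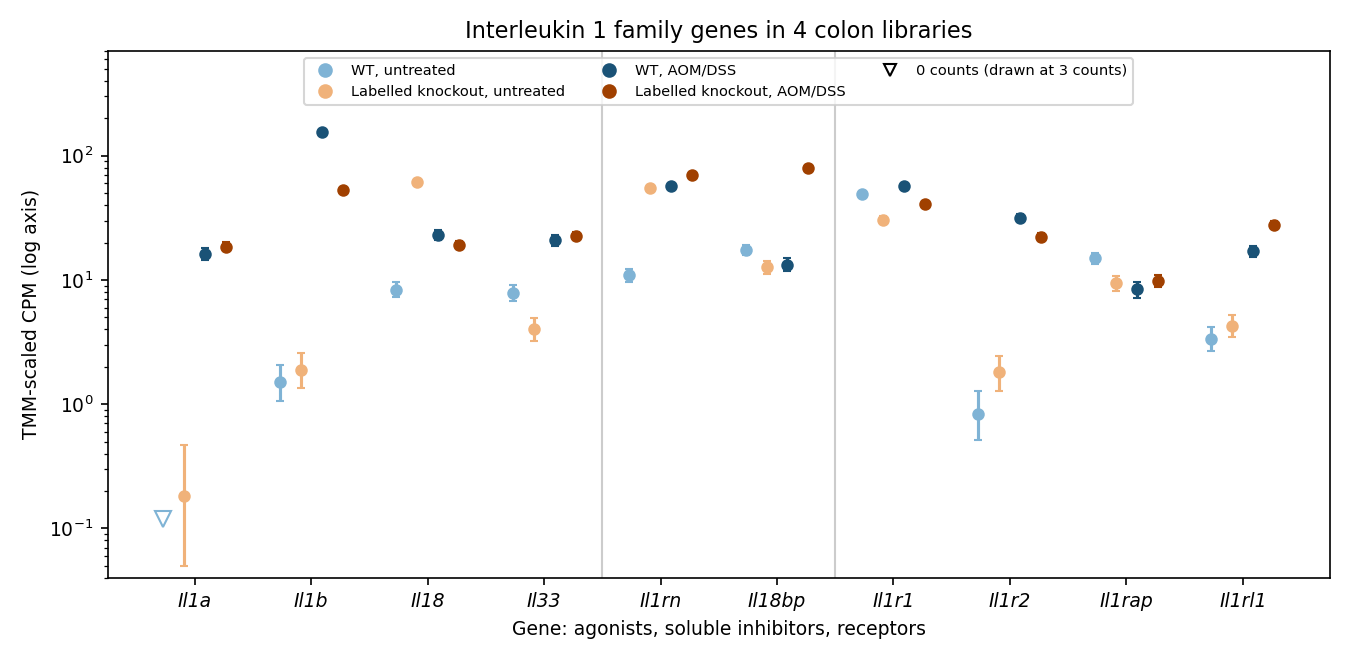
TMM-scaled CPM on a log axis for each of the 10 genes in the 4 libraries, with 95% counting intervals as bars and the library without a count drawn as a triangle at 3 counts. Il1a, Il1b and Il1r2 lie under 2 CPM in both untreated libraries and above 16 CPM in both AOM/DSS libraries, while Il1r1 stays between 30.6 and 56.8 CPM.

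Il1a and Il1b, the genes of the agonists, are neighbours on chromosome 2 (GRCm38, minus strand), at 129299609 to 129310186 and 129364569 to 129371164, with 54.4 kb between them. Il1rn lies far from both on the same chromosome, at 24336860 to 24351491 on the plus strand. Of their promoters, the bases from 35 to 6 before the start are shown because these neighbours had the largest differences among the agonists. Capitals mark matches to a TATA box (TATAAA) or AP-1 (TGANTCA).
Il1a, chr2:129309978-129310007, minus strand: gacTATAAAaaggcagagaagccTGACTCA
Il1b, chr2:129371145-129371174, minus strand: ggacTATAAAacaagggagggaaaacaagt
The sequences are RefSeq's (GRCm38), which listed all 10 members with 15 start windows, and positions are from the start of the listed transcript, since RefSeq's gene spans reach further. In the 250 bases before each start, those motifs, C/EBP (TTGCNNAA), an interferon response element core (GAAANNGAA), an interferon gamma activated site (TTCNNNGAA) and the NF-kB motif were searched on both strands. Il1a and Il1b both held a TATA box, beginning 32 and 31 bases before the start, and 12.4% of 32851 windows of this length held one. An AP-1 match stood 12 bases before the start of Il1a (6.75% of windows held one), and the window of Il18bp held a C/EBP match 49 bases before its start (9.56%). These 3 windows did not hold the letters of the interferon motifs (7.13% and 7.02% of windows) or of the NF-kB motif (3.90%), which says only that they are not in these bases. Windows of Il18 and Il33 also held a TATA box, 29 bases before the start in an Il33 window. An AP-1 match stood in Il1rn, and C/EBP matches in Il1r1, Il1rl1 and Il33. Il1r1 held an NF-kB match and Il1r2 an interferon gamma activated site.

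Il1a was nearly absent from untreated colon, with 0 counts in WT and 4 counts (0.184 CPM) in the library labelled knockout. The 0 counts have an upper 95% limit of 0.146 CPM, and the floor of 3 counts used for ratios is 0.119 CPM. Il1a reached 16.3 CPM in WT and 18.5 CPM in the labelled knockout after AOM/DSS. Both treated libraries were far above both untreated ones, and the treated libraries differed 1.14-fold (0.994 to 1.30). Against a floor of 3 counts in untreated WT, Il1a was 137-fold higher in treated WT, and its 95% interval starts at 111. In the pair labelled knockout it was 100-fold higher (39.0 to 370).

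Il1b stood at 1.51 and 1.89 CPM in the untreated libraries of WT and labelled knockout, a ratio of 1.25 (0.785 to 2.00). After AOM/DSS it stood at 156 CPM in WT and 53.3 CPM in the labelled knockout. The WT library was thus the highest, and Il1b was 2.94-fold lower in the treated library labelled knockout (2.77 to 3.12). The AOM/DSS ratio was 104 in WT (75.5 to 147) and 28.2 in the labelled knockout (20.7 to 39.5). Antisense transcripts cannot be told apart without strand, but the overlapping gene Il1bos had at most 21 counts and Gm14023, opposite Il1a, at most 24.

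Neutrophil markers as a sum, like both genes, were higher after AOM/DSS. Their summed level over 12 markers was 17.1 and 62.8 CPM in untreated WT and labelled knockout and 426 and 318 CPM after AOM/DSS, and 8 of the 12 were at least 2-fold higher in each treatment pair. Ly6g alone made up 54.7 of the 62.8 CPM, and S100a8 there stood at 0.0921 CPM. Mpo and Ngp were at 0 in both untreated libraries. Between the treated libraries, where Il1b was called lower in the labelled knockout, 1 neutrophil marker was higher there, 1 was lower and 7 were within 2-fold. Monocyte and macrophage markers, 12 in all, summed to 454, 526, 536 and 1473 CPM in untreated WT, untreated labelled knockout, treated WT and treated labelled knockout, and 1 of the 12 was called higher and 3 lower in the WT pair, against 9 and 1 in the labelled knockout pair. Squamous epithelium markers, the keratins and related genes of skin-like epithelium, which also makes Il1a, summed to 7.14, 7.09, 15.6 and 92.8 CPM in the same order, with Sprr3 at 0 throughout. The part of these cells in the values was not tested.

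Il18 (chromosome 9, 50554700 to 50581841) was highest in the untreated library labelled knockout. It stood at 8.33 CPM in untreated WT, 61.1 CPM in the untreated labelled knockout, 23.1 CPM in treated WT and 19.1 CPM in the labelled knockout after AOM/DSS. The intervals of the treated libraries, 21.1 to 25.2 and 17.6 to 20.6 CPM, lay close together, and the untreated libraries lay on either side of them. Without treatment, Il18 was 7.33-fold above WT in the labelled knockout (6.33 to 8.52). AOM/DSS went with a level 2.77-fold higher in WT (2.35 to 3.27) and 3.20-fold lower in the labelled knockout (2.91 to 3.53). Markers of surface colonocytes differed among themselves, and all 5 on the list were lowest in the treated labelled knockout. Slc26a3, a chloride exchanger, stood at 134, 674, 216 and 7.17 CPM, and Aqp8, a water channel, at 37.1, 448, 51.1 and 1.61 CPM in the same order of libraries. Car4, a carbonic anhydrase, stood at 209, 1103, 131 and 3.79 CPM, so these 3 were highest where Il18 was. Car1, another carbonic anhydrase, stood at 7654, 857, 5313 and 28.4 CPM and the keratin gene Krt20 at 1007, 759, 1106 and 420 CPM, both higher in untreated WT than in the untreated labelled knockout. Epcam and Cdh1, found in all epithelial cells, stood at 906, 1647, 983 and 632 CPM and at 833, 1303, 915 and 842 CPM. The whole list of 12 epithelial markers summed to 31402, 21767, 26538 and 9258 CPM, an order unlike that of Il18, and 0 of the 12 were at 0. Muc2 and Car1 led the sum in untreated WT only. In the labelled knockout pair, 6 of the 12 were called lower after AOM/DSS and 2 higher. In the WT pair, 1 was called lower and 0 higher. Whether epithelial content set the level of Il18 was not tested.

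Il33 (chromosome 19, 29925113 to 29960718) was higher after AOM/DSS in both pairs, at 7.86 and 20.8 CPM in the WT pair and 4.0 and 22.5 CPM in the labelled knockout pair. The treated libraries did not differ beyond counting error (1.08-fold, 0.958 to 1.22), and in the untreated pair the library labelled knockout was 1.96-fold lower (1.52 to 2.55), just under the size called. The ratios were 2.65 in WT (2.24 to 3.15) and 5.61 in the labelled knockout (4.49 to 7.09). Endothelial cells and fibroblasts are known to hold this alarmin. Endothelial markers, 7 in all, summed to 232 to 269 CPM over the 4 libraries, and 8 fibroblast markers to 1920 and 1783 CPM untreated and 1130 and 1144 CPM treated. Of both lists, only Vwf, Cdh5 and Thy1 had the same order of libraries as Il33. Vwf stood at 64.6, 53.3, 82.7 and 94.3 CPM, Cdh5 at 31.7, 31.3, 34.6 and 35.3 CPM and Thy1 at 18.6, 13.8, 34.7 and 54.4 CPM in untreated WT, untreated labelled knockout, treated WT and treated labelled knockout. The other markers of both lists did not follow Il33. Of the 8 fibroblast markers, 0 were called higher and 2 lower in the WT pair, and 1 higher and 3 lower in the labelled knockout pair. Of the 7 endothelial markers, 0 were called higher and 1 lower in the WT pair, and 0 either way in the labelled knockout pair. Markers of other cells in the wall also differed between libraries: smooth muscle (7 markers) summed to 8619, 8891, 6702 and 1275 CPM, fat (6) to 340, 79.4, 165 and 35.5 CPM, and B and plasma cells (7) to 603, 840, 724 and 623 CPM in the order of libraries given for Il18. Their part in the members' levels was not tested.

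Il1rn, the antagonist gene, was low in 1 library only, untreated WT, with 10.9 CPM. It stood at 55.3 CPM in the untreated labelled knockout, 56.7 CPM in treated WT and 70.6 CPM in the labelled knockout after AOM/DSS. The first of these high values had an interval of 52.2 to 58.5 CPM and the second of 53.6 to 60.0 CPM, so they overlapped. The untreated library labelled knockout was 5.09-fold above untreated WT (4.46 to 5.82). The AOM/DSS ratio was 5.22 in WT (4.57 to 5.97) and 1.28 in the labelled knockout (1.19 to 1.37), the latter under the size called. Il1rn also makes isoforms that stay in the cell, which a count per gene does not separate.

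Il18bp (chromosome 7, 102015074 to 102018232, minus strand) was high in 1 library only, the labelled knockout after AOM/DSS, with 80.4 CPM. It stood at 17.5 CPM in untreated WT, 12.6 CPM in the untreated labelled knockout and 13.3 CPM in treated WT, and the intervals of the last pair overlapped (11.1 to 14.1 and 11.8 to 14.9 CPM). The AOM/DSS ratio was 6.40 in the labelled knockout (5.65 to 7.28), while in WT the treated library was 1.32-fold lower (1.14 to 1.54). Between the treated libraries Il18bp differed 6.07-fold (5.37 to 6.88). It shares 80 exon bases with Numa1 on the other strand, which had 8909, 5804, 7139 and 7866 counts in untreated WT, untreated labelled knockout, treated WT and treated labelled knockout and so did not follow Il18bp. Il18bp is known to be induced by interferon gamma, and the interferon-induced chemokine gene Cxcl9 stood at 2.62, 2.99, 6.37 and 244 CPM in the same order. The sum of the monocyte and macrophage markers, given above, was also highest there. Between the treated libraries, 10 of these 12 markers were higher in the labelled knockout and 1 lower. The lower one, Cd163, stood at 16.7, 4.69, 8.80 and 1.17 CPM in the same order, and Mrc1 at 39.3, 21.2, 14.2 and 31.9 CPM. The part of interferon gamma or of macrophages in the level of Il18bp was not tested.

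Il1r1, Il1r2 and Il1rl1 lie in 1 receptor cluster on chromosome 1 (plus strand), at 40222480 to 40316201, 40084692 to 40125230 and 40404864 to 40465418. Il1r1, the signalling receptor, stood at 48.9 and 56.8 CPM in untreated and treated WT and at 30.6 and 40.8 CPM in the labelled knockout. Its intervals were separate in all 4 libraries, but no pair reached 2-fold: the AOM/DSS ratio was 1.16 in WT (1.07 to 1.26) and 1.33 in the labelled knockout (1.21 to 1.47). Il1r2, the decoy receptor of neutrophils and other myeloid cells, stood at 0.833 and 1.80 CPM in the untreated libraries of WT and labelled knockout and at 31.6 and 22.2 CPM after AOM/DSS. Both treated libraries were above both untreated ones, by 37.9-fold in WT (24.6 to 61.7) and 12.4-fold in the labelled knockout (8.95 to 17.5). Its order over the libraries differed from that of its neighbour Il1r1, 97.2 kb away. The neutrophil marker sums given above moved with it.

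Il1rl1, the ST2 gene, was higher after AOM/DSS in both pairs, at 3.37 and 17.0 CPM in the WT pair and 4.28 and 27.8 CPM in the labelled knockout pair. The ratios were 5.03 (3.96 to 6.45) and 6.50 (5.24 to 8.13). The treated library labelled knockout was 1.64-fold above treated WT (1.45 to 1.86), under the size called. Counts per gene do not separate its membrane form from its soluble decoy form. Of 10 mast cell markers, 9 were at least 2-fold higher in the pair labelled knockout, where Mcpt2, a mucosal mast cell protease, stood at 1.24 and 77.3 CPM. The other 1, Kit, was lower in that pair, at 88.8 and 29.0 CPM. In the WT pair only 2 of the 10 had at least 50 counts, so the others could not be called there. Of these, Hdc was higher, at 0.397 and 37.4 CPM, and Kit lower, at 153 and 55.7 CPM. Mcpt2 stood at 0.0793 and 1.47 CPM there, with Fcer1a at 0 after treatment and Tpsab1 at 0 before and after it. The summed level of all 10 was 155, 96.3, 97.5 and 206 CPM over untreated WT, untreated labelled knockout, treated WT and treated labelled knockout. Kit, which pacemaker cells of the gut also express, made up 153 of the 155 CPM in the first and 29.0 of the 206 CPM in the last. Markers of T cells and regulatory T cells, 9 in all, summed to 40.1, 41.0, 63.9 and 78.9 CPM. Between the treated libraries, 3 of the 9 were higher in the labelled knockout, 1 was lower and 5 were within 2-fold. Foxp3, the regulatory T cell factor, stood at 1.05 CPM in treated WT and 6.31 CPM in the labelled knockout after AOM/DSS. Ikzf2, the lower one, stood at 22.4 and 7.64 CPM. The part of these cells in the level of Il1rl1 was not tested.

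Il1rap (chromosome 16, 26581509 to 26730128), the accessory chain of several receptors of the family, reached 2-fold in no pair. It stood at 15.0 CPM in untreated WT and at 9.39, 8.39 and 9.82 CPM in the untreated labelled knockout, treated WT and treated labelled knockout. Only untreated WT stood apart, and the intervals of the other 3 overlapped. The treated WT library was 1.79-fold lower than the untreated one (1.49 to 2.14), and the ratio in the labelled knockout was 1.05 (0.873 to 1.25).

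**Figure D2:**
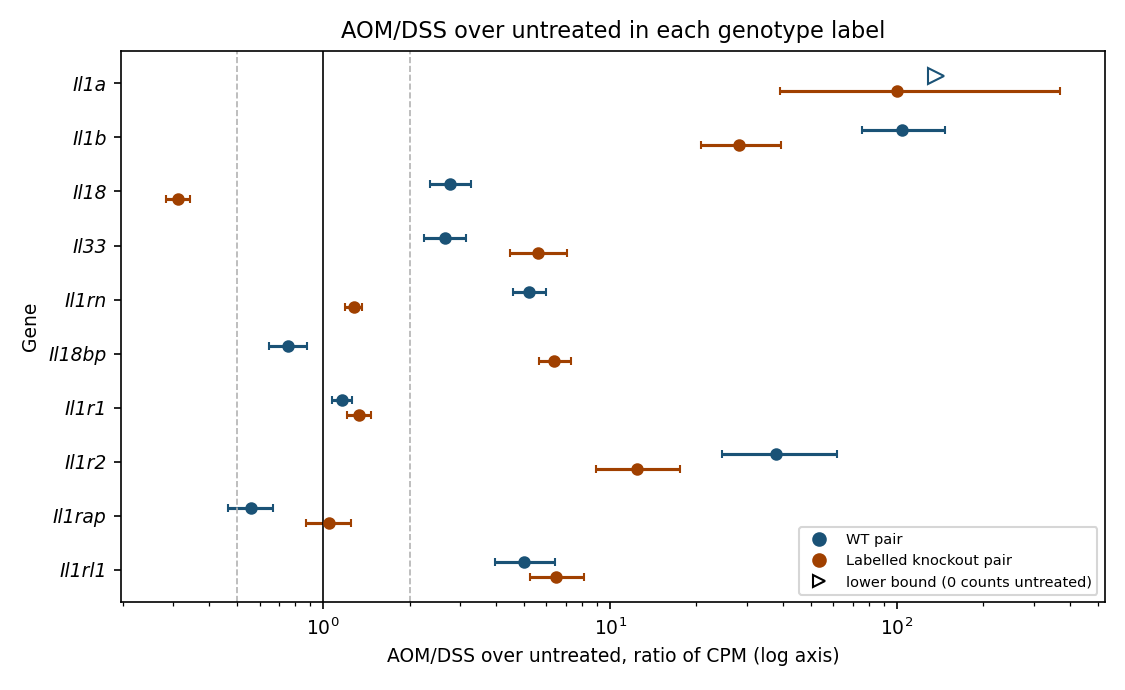
Ratio of CPM, AOM/DSS over untreated, on a log axis for the 10 genes in each treatment pair, with 95% counting intervals and dashed lines at 2-fold. Il18 lies at 2.77 in WT and on the lower side in the labelled knockout, and Il18bp shows the reverse with 6.40 in the labelled knockout. The triangle for Il1a in WT stands at 137, the ratio to a floor of 3 counts, and its 95% interval starts at 111.

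Per kilobase of exon, the levels of different genes can be set side by side. In untreated WT, Il18 and Il1r1 led with 8.08 and 7.69 CPM per kb, followed by Il18bp with 5.79, and Il1r2 and Il1a were last with 0.437 and 0. In the untreated library labelled knockout, Il18 led with 59.2 CPM per kb, and Il1rn followed with 9.99. After AOM/DSS, Il1b led in both libraries, with 82.0 CPM per kb in WT and 27.9 in the labelled knockout. Il18 was next in WT with 22.4 CPM per kb and Il1r2 the third with 16.6, while in the labelled knockout Il18bp was next with 26.6 and Il18 the third with 18.5. The lengths are the union of all annotated exons, which understates genes whose long isoforms are unused.

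Ratios of counts of 2 genes within 1 library do not depend on library scaling, and gene length cancels when such a ratio is compared between libraries. A single ratio of counts is not corrected for length, so it does not say which gene was more abundant. The ratio of Il1rn to Il1b, antagonist to agonist, was 7.21 in untreated WT and 0.363 in treated WT, and 29.3 and 1.33 in the labelled knockout. Per kilobase of exon, this ratio was 2.48 and 0.125 in WT and 10.1 and 0.457 in the labelled knockout. It was thus lower after AOM/DSS by 19.9-fold in WT (14.0 to 28.9) and 22.1-fold in the labelled knockout (16.1 to 31.1), with overlapping intervals. Between labels it was higher in the labelled knockout by 4.06-fold untreated (2.49 to 6.61) and 3.66-fold after AOM/DSS (3.34 to 4.01). The ratio of Il1rn to Il1a after AOM/DSS was 3.48 in WT and 3.82 in the labelled knockout, which did not differ beyond counting error (1.10-fold, 0.941 to 1.27).

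The ratio of decoy to signalling receptor, Il1r2 to Il1r1, was 0.0170 and 0.0587 in the untreated libraries of WT and labelled knockout and 0.557 and 0.544 after AOM/DSS. Per kilobase of exon, this ratio was 0.0568 and 0.196 untreated and 1.86 and 1.81 after AOM/DSS. It was 32.7-fold higher after AOM/DSS in WT (21.0 to 53.5) and 9.26-fold in the labelled knockout (6.60 to 13.3), and the treated libraries did not differ beyond counting error (0.978-fold, 0.856 to 1.12). Il18bp to Il18 went in opposite directions: it was 2.10 in untreated WT and 0.575 in treated WT, but 0.206 and 4.22 in the labelled knockout. That is 3.66-fold lower in WT (2.93 to 4.59) and 20.5-fold higher in the labelled knockout (17.5 to 24.1). Per kilobase of exon, the ratio of Il18bp to Il18 was 0.717 and 0.196 in WT and 0.0701 and 1.44 in the labelled knockout. Il1rl1 to Il33 was 0.429, 1.07, 0.815 and 1.24 in untreated WT, untreated labelled knockout, treated WT and treated labelled knockout. Il1rap to Il1r1 was 0.307 in both untreated libraries, 0.148 in treated WT and 0.241 in the labelled knockout after AOM/DSS.

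**Figure D3:**
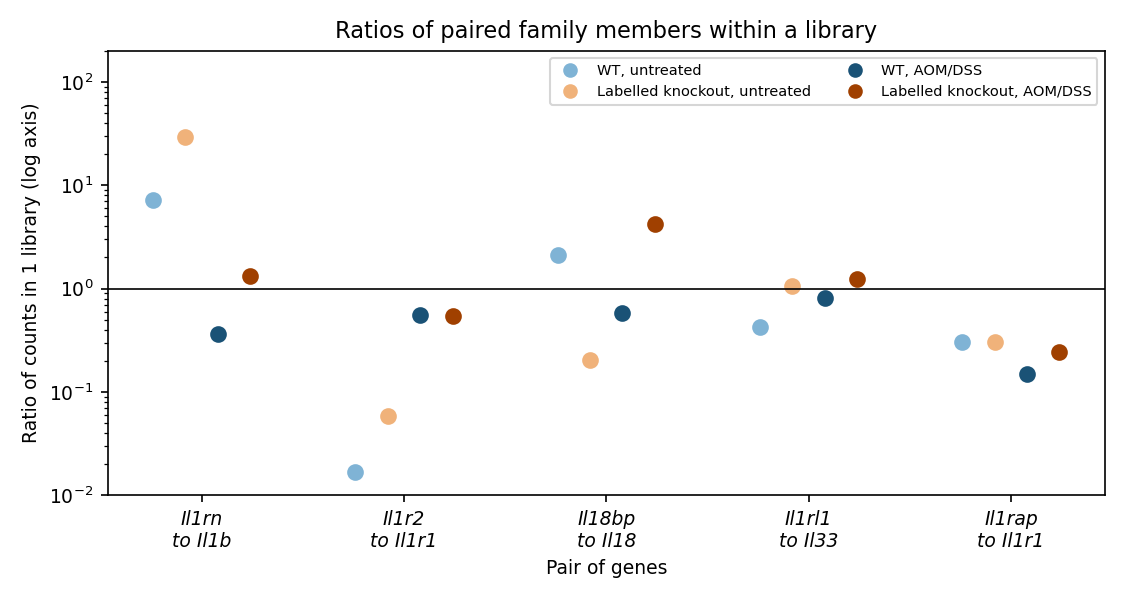
Ratio of the counts of 2 family members within each library, on a log axis, with 1 point per library. Counts are not corrected for gene length, so the line at 1 does not mark equal levels. Il1rn to Il1b is above 1 in both untreated libraries (7.21 and 29.3) and lower after AOM/DSS (0.363 and 1.33), while Il18bp to Il18 is highest in the labelled knockout after AOM/DSS (4.22) and lowest in the untreated labelled knockout (0.206).

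The lists of other pathway genes were described in the same way. Among 11 other ligands and receptors of the family, 5 had at least 50 counts in the treatment pairs, of which 2 were higher in the WT pair and 3 in the pair labelled knockout, with 0 lower. Il1f9, which encodes an epithelial agonist of the family, stood at 0 and 7.66 CPM in the WT pair and 0.0460 and 3.47 CPM in the labelled knockout pair. Il18rap, the accessory chain of the Il18 receptor, stood at 2.98 and 9.67 CPM and at 1.52 and 15.3 CPM. Il18r1, its binding chain, stood at 3.81 and 5.18 CPM in WT and 3.41 and 12.4 CPM in the labelled knockout. Sigirr, an inhibitory receptor of epithelium, stood at 37.3 and 49.3 CPM in WT and 54.0 and 27.9 CPM in the labelled knockout.

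The adaptors and kinases below the receptors differed little. Of 19 such genes, 0 were called higher or lower in any of the 4 comparisons, with log2(CPM + 1) ratios from -0.17 to 0.54 in the WT pair and -0.99 to 0.83 in the pair labelled knockout. The nearest was Irak4, a kinase of the receptor complex, which stood at 42.3 and 20.8 CPM in the labelled knockout pair, 2.04-fold lower without the pseudocount (1.84 to 2.26). Myd88, the shared adaptor, stood at 44.4 and 60.2 CPM in the WT pair and 38.7 and 69.8 CPM in the labelled knockout pair. Of 16 processing and release genes, 13 had at least 50 counts in both treatment pairs. Nlrp3, an inflammasome sensor of myeloid cells, was higher in both, at 1.94 and 19.3 CPM in WT and 1.15 and 12.3 CPM in the labelled knockout, as was Mefv, the pyrin sensor, at 2.62 and 10.3 CPM and 3.82 and 16.5 CPM. Nlrp6, an epithelial sensor, stood at 343 and 387 CPM in WT and 299 and 66.9 CPM in the labelled knockout, and was the 1 gene of the list that was lower in that pair. Casp1, the protease that activates the products of Il1b and Il18, stood between 94.9 and 122 CPM in all 4 libraries. Between the treated libraries, 0 of the 13 were higher in the labelled knockout and 2 were lower, against 11.9% and 12.4% of 15779 genes. These 2 were Nlrp6 and Pycard, the latter at 694 CPM in WT and 245 CPM in the labelled knockout, 2.83-fold lower (2.75 to 2.91).

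Of 21 genes known to be induced by interleukin 1, 17 were higher and 0 lower in the WT pair, where 19 had enough counts (median log2 ratio 2.07), and 12 higher and 0 lower in the pair labelled knockout (2.57), where 18 had. Cxcl2, a neutrophil attractant, stood at 0 and 49.5 CPM in the WT pair and 0.0460 and 20.1 CPM in the labelled knockout pair. Lcn2, an antibacterial lipocalin, stood at 2.14 and 74.5 CPM and at 1.52 and 306 CPM. The treated libraries went both ways, with 7 genes higher and 5 lower in the labelled knockout: Cxcl5 stood at 8.44 CPM in WT and 133 CPM in the labelled knockout, and Csf3, a neutrophil growth factor, at 4.77 and 0.726 CPM. These genes answer to other cytokines too, and the part of interleukin 1 in them was not measured.

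Genes tied to the Il18 pathway and type 1 immunity, 8 in all, were each at least 2-fold higher after AOM/DSS in the pair labelled knockout (median log2 ratio 2.41), where Il18 was lower and Il18bp higher. In the WT pair 1 of the 8, Cxcl9, was higher, and 6 had enough counts (median 0.04). Over all genes, 14.1% were called higher in the pair labelled knockout and 4.08% in the WT pair. Gzmb, a killer cell protease, stood at 7.74 and 8.35 CPM in the WT pair and 3.04 and 53.6 CPM in the labelled knockout pair. Ifng itself stood at 0.0397 and 0.367 CPM and at 0 and 3.19 CPM. Genes tied to the Il33 pathway and type 2 immunity were mostly too low: 2 of 10 had enough counts in the WT pair and 3 in the other. Il4, Il5 and Il13 stayed under 0.1 CPM in every library, and Il9 was at 0. Rora, a factor of type 2 lymphoid cells, was lower in the WT pair (log2 ratio -1.06) and not called in the other (-0.14). Gata3 was too low in the WT pair and not called in the other (0.62). Between the treated libraries Gata3 was higher in the labelled knockout, at 0.734 CPM in WT and 2.87 CPM in the labelled knockout, while Rora and Areg were not called. Areg, a growth factor of tissue repair, was higher in both pairs, at 14.3 and 42.0 CPM and at 10.9 and 36.4 CPM.

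**Figure D4:**
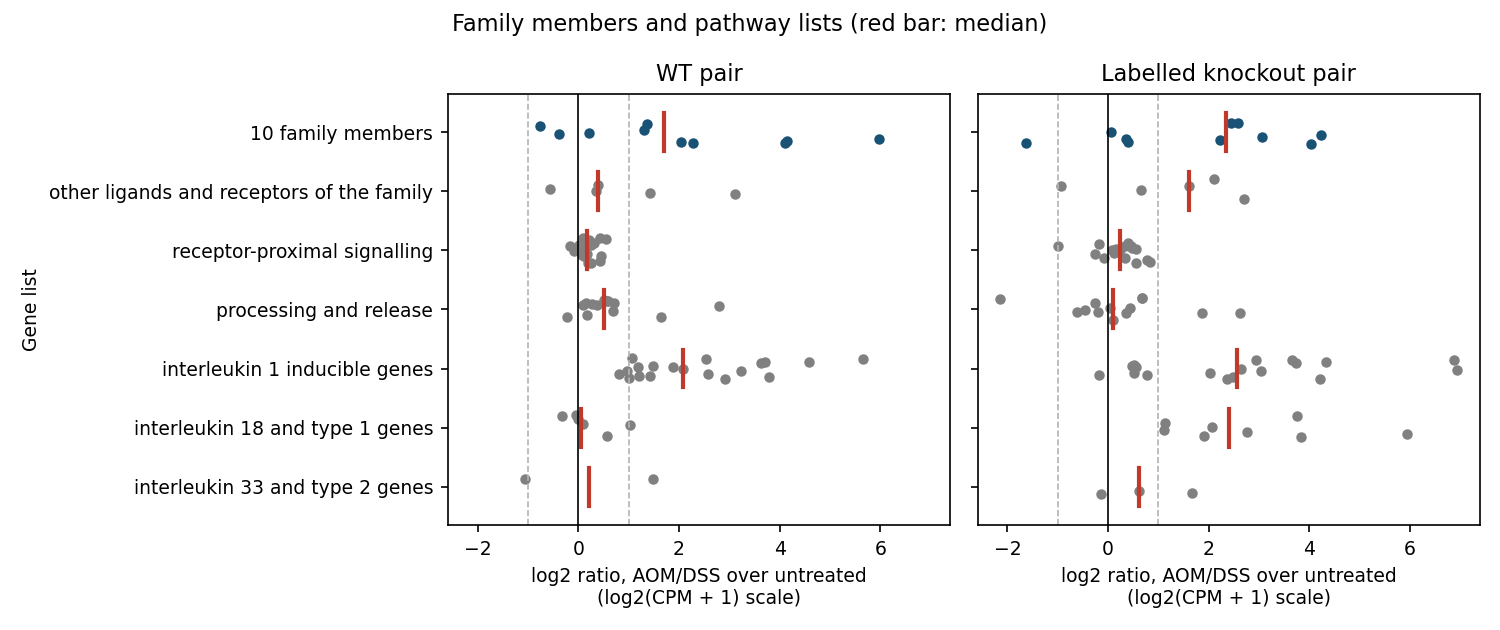
Log2 ratio of AOM/DSS over untreated for each gene that reached 50 counts, by list, WT on the left and labelled knockout on the right; red bars are medians and dashed lines mark 2-fold. The 19 genes of receptor-proximal signalling lie between the dashed lines in both, with Irak4 closest to one at -0.99, interleukin 1 inducible genes have medians of 2.07 and 2.57, and the type 1 list has medians of 0.04 and 2.41.

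The AOM/DSS responses of the labels were set against each other as the difference of log2 ratios, labelled knockout minus WT, which could not be tested with 1 library per group. It was at least 1, that is 2-fold, in 1 member (Il18bp, 2.96) and at most -1 in 4 (Il18, -3.00; Il1rn, -1.93; Il1b, -1.74; Il1r2, -1.10), against 14.2% and 16.3% of 16383 genes. For Il1rn the responses were 2.28 in WT and 0.35 in the labelled knockout, where the untreated library was already high. For Il1a they were 4.11 and 4.04, and for Il1rl1 2.04 and 2.45. Il33 (0.93) and Il1rap (0.83) lay just under that size.

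An additive model of genotype label and treatment over all 4 libraries allows a test if the interaction is taken as noise, with 1 residual degree of freedom. With edgeR's quasi-likelihood test, 0 of 18973 genes (0%) had an adjusted p under 0.05 for AOM/DSS or for the genotype label, and 1148 and 746 had an unadjusted p under 0.05. The smallest adjusted p among the members was 0.294, for the AOM/DSS effect of Il1b (log2 fold 5.74, higher in both pairs), and those of Il1a and Il1r2 were both 0.348. DESeq2's Wald test called 333 of 18618 genes (1.79%) for AOM/DSS, among them 4 members: Il1b (adjusted p = 1.13e-17), Il1a (3.13e-11), Il1r2 (5.52e-09) and Il1rl1 (0.00251), each higher in both pairs. Il33 missed the threshold with an adjusted p of 0.0667 by DESeq2. For the genotype label DESeq2 called 250 of 19747 genes (1.27%) and 0 members, where Il1rn was nearest (adjusted p = 0.624). The call for these 4 genes depends on the tool and, for 3 of them, on the filter: without a filter on low counts, edgeR gave adjusted p = 0.013 for Il1b, 0.022 for Il1r2 and 0.0345 for Il1a.

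Across all libraries, the genes whose centred log2 values lay nearest to each of 4 members were sought among 13775 genes, as a description over 4 points. For Il1b they were Cxcl2 (distance 0.24), Hdc, the histamine-making enzyme, and Irg1, the itaconate-making enzyme of macrophages. For Il1r2 they were Trem1, a receptor of neutrophils and monocytes (0.30), Retnlg and Clec4e. For Il18 they were Ly6g6e (0.32), Slc6a8, a creatine transporter, and Rdh16, a retinol dehydrogenase. Slc6a8 stood at 69.5, 395, 164 and 105 CPM in untreated WT, untreated labelled knockout, treated WT and treated labelled knockout. For Il33 they were Myl7 (0.15), the immunoglobulin constant gene Ighg1 and Lgi2. Ighg1 belongs to a family of similar genes whose reads can be divided, so its level is uncertain.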

How the data were processed

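The authors deposited raw read counts per gene symbol, whole numbers without normalization, for 4 colon libraries. TRIzol RNA was made into libraries with an Ion Proton RNA-seq kit, per the labels' protocols. GRCm38 (mm10) was the build, per the submitters' processing notes, while aligner, counter, annotation and strand handling were not given in the sources used here. The table held 44788 rows and 0 columns of other samples, and in 27 rows the symbol had become a date.

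CPM used TMM factors of 0.9915, 0.9311, 0.9473 and 1.143 (edgeR 4.0.16, R 4.3.3) for WT and labelled knockout untreated, then for both after AOM/DSS. Ratios were computed over the whole table as log2(CPM + 1), so differences of low genes are understated. Folds in the text leave out the pseudocount and have exact (Clopper-Pearson) intervals, and levels have exact Poisson intervals. Since reads carried no stated molecular identifiers, they may not be independent molecules. Changes of a ratio of 2 genes have the exact conditional interval of the odds ratio (scipy 1.17.1). A library with 0 counts was set to a floor of 3 counts. The additive model (filterByExpr, robust fit, Benjamini-Hochberg over all genes, biological coefficient of variation 0.444) had DESeq2 1.42.0 as its alternative. Its p-values take the interaction of genotype label and treatment as noise and do not measure spread between libraries of a group. Exon lengths and overlaps came from GENCODE M21 (GRCm38), gene positions and promoter windows from RefSeq (GRCm38).

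The members, 6 pathway lists and 11 marker lists were chosen with earlier results of these data known. Named pathway genes were up to 4 of each list per comparison with the largest absolute ratio, and the genes nearest to Il1b, Il1r2, Il18 and Il33 were the 3 with the smallest Euclidean distance, leaving out predicted genes and pseudogenes. Genes of the marker lists, and a few of the pathway lists (Casp1, Ifng, Il4, Il5, Il13 and Il9), were named after their values were seen. Alternatives were other scalings, pseudocounts of 0.5 and 5 CPM, a minimum of 200 counts or none, thinning to the smallest total, and leaving out genes above 1% of a library.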

Additional observations from a re-analysis of the deposited data

Results flagged for a closer look

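Il18 and Il18bp responded in opposite directions in the genotype labels, with counting intervals away from no difference on both sides. Il18 had a log2 ratio of AOM/DSS over untreated of 1.37 in WT and -1.63 in the labelled knockout. Il18bp had -0.38 in WT, under the size called, and 2.58 in the labelled knockout. With 1 library per label and treatment, neither difference was tested. No group had enough samples to look for outlying ones.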

How the results depend on the processing

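The counts of members at least 2-fold higher or lower stayed within 1.5 times of those reported under each alternative run, in each of the 4 comparisons and for the difference of responses. TMM factors computed without the AOM/DSS library labelled knockout, an alternative added after seeing the data, left 7 members called in the WT pair and 2 in the untreated pair. Of 200 log2 ratios of members under other scalings, thinning or without abundant genes, 187 stayed within their counting interval, 0 turned sign for a called gene, and 13 lay outside, all with library totals alone, which moved the median of all genes to 0.30 in the pair labelled knockout and 0.28 between the treated libraries. Il18 then stood at a log2 ratio of -1.34 in the pair labelled knockout. All 22 changes of paired ratios kept within their interval after thinning. The additive model was less stable: for AOM/DSS it called 0 genes, but 23 with library totals, 81 without a filter and 333 with DESeq2, and for the genotype label 0, 15, 62 and 250. Il1b had an adjusted p of 0.0165 with library totals and 0.013 without a filter in edgeR. The cause was not tested. No paired analysis was possible because each group has 1 library and the labels carry no replicate numbers. For the same reason no library could be left out of the additive model.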
